A study of Homo sapiens with 4 samples.

Results

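Inflammatory cytokines and chemokines are secreted proteins with which a cell alerts its surroundings to damage or infection. The 10 genes described here are IL6, LIF, IL24, IL1A, IL1B, CSF2, CXCL1, CXCL2, CXCL3 and CXCL8, chosen by gene symbol from the 61806 genes of the deposited count table. Each symbol matched 1 gene. Poly(A) RNA was sequenced from a breast cancer line, MDA-MB-231, and a melanoma line, MDA-MB-435, both labelled wild type, as untreated control and after CPYPP at a dose of 10 µM for 6 h. CPYPP is a small-molecule inhibitor of DOCK proteins, the exchange factors that activate the GTPase Rac, and the study used it to provoke paraptosis, a vacuolating form of cell death that does not need caspases. The label gives the control no vehicle, and the text on culture and treatment names MDA-MB-435 for every sample, so the line was taken from each sample's own label. Each of the 4 libraries is the single library of its condition, from an established line grown in culture.

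The members fall into families by receptor. IL6 and LIF signal through the shared receptor subunit gp130 to the JAK kinases and STAT3. IL24 belongs to the IL-10 family and also signals through STAT3, and IL1A and IL1B bind the IL-1 receptor, which activates NF-kappaB. CSF2 encodes GM-CSF, a growth factor of granulocytes and macrophages. CXCL1, CXCL2, CXCL3 and CXCL8 draw neutrophils through the receptors CXCR1 and CXCR2. NF-kappaB and AP-1 are the best known activators of these genes, their mRNAs are short-lived because of AU-rich elements, and tumour cells are known to make several of them without any immune signal.

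A matching stretch of promoter is shown for the members that carry one, since the chemokines share a run of it. In the CPYPP library of MDA-MB-231 CXCL1 stood lower and CXCL8 higher, though CXCL8 was not called. The sequences are RefSeq promoters on GRCh38.p14, given 5′ to 3′ on the strand of the gene and counted from the RefSeq start, and the table held 9 of the 10 members (all but LIF). For IL6, CXCL1, CXCL2 and CXCL3 the capitals mark the match to the kappaB consensus, the site that NF-kappaB dimers bind. For CXCL8 they mark ggaatttcc, the longest run shared by the windows of all 4 CXC members. The CXCL8 window held no full match to the kappaB consensus. Sites that depart from the consensus were not searched, so this does not mean that CXCL8 lacks a kappaB site.
IL6 (chr7:22727117-22727146, + strand): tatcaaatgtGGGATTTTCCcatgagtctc
CXCL1 (chr4:73869304-73869333, + strand): ctggaactccGGGAATTTCCCtggcccggg
CXCL2 (chr4:74099254-74099283, - strand): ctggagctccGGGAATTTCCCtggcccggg
CXCL3 (chr4:74038749-74038778, - strand): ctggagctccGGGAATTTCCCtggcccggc
CXCL8 (chr4:73740467-73740496, + strand): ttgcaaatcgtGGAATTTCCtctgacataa

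The stretches of CXCL1, CXCL2 and CXCL3 read almost alike, and that of CXCL8 differs around the run. In the windows of 250 bases before to 50 bases after the start, the kappaB consensus was found on either strand in 5.91% of 35116 promoters, and the 9-base run in 0.461%. Over the 140 bases before the start, CXCL1 and CXCL2 were identical at 92.1% of positions in an alignment with gaps, CXCL1 and CXCL3 at 90.7%, and CXCL2 and CXCL3 at 88.6%. CXCL8 was identical to each of the others at 49.3%. In GENCODE v29 the CXCL2 and CXCL3 stretches above fall in the first exon of a longer transcript of each gene (the CXCL2 position in the deposited table ends short of its stretch), that of IL6 in an intron of one, and those of CXCL1 and CXCL8 upstream of the gene. A wider upstream stretch, outside any exon of the gene in GENCODE v29, is shown for CXCL1 and CXCL8. That of CXCL8 holds a match to the AP-1 motif TGANTCA (7.71% of promoters) at bases -137 to -131.
CXCL1 (chr4:73869253-73869392, + strand): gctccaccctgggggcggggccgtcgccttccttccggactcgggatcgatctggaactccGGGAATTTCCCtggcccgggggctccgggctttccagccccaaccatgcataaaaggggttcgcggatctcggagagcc
CXCL8 (chr4:73740429-73740505, + strand): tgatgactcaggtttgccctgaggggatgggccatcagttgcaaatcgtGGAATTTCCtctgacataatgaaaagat

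Of the other motifs, TGANTCA also matched the IL1A windows, TGACNNNGC (13.3% of promoters) those of IL24 and IL1A, and GAANNTTC (6.77%) that of IL1B. TGATGNAA (3.62%) matched no member, and the CSF2 window held none of the motifs. These 5 motifs, of AP-1, NF-kappaB, C/EBP with ATF, antioxidant response and heat shock factors, were chosen after the expression values had been seen. A match says only that the letters are there.

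Reads counted on genes came to between 17196385 and 22663954 per library. With 1 library per condition there is no replicate check, a test on the reads compares the libraries and not the conditions, and intervals are 95% exact binomial intervals for counting error only. Genes were called at a fold change over 2 and a Benjamini-Hochberg adjusted p under 0.05 in a binomial test (edgeR, TMM normalisation) over all genes that reached 10 counts in 1 or both libraries of the line. The calls covered 16441 tested genes in the breast cancer line and 16527 in the melanoma line. A gene that reached 10 counts in 1 library alone could be called only in the direction of that library. With total counts in place of TMM the calls shifted from 694 higher and 508 lower to 598 and 597 in the breast cancer line, and from 524 and 1078 to 370 and 1487 in the melanoma line. Of the line markers, EGFR had 12150 and 8161 counts in the control and CPYPP libraries of the breast cancer line against 70 and 33 in the melanoma line, and SOX10, a melanocyte factor, had 0 and 1 against 3031 and 707. The pigment genes of the melanocyte list were low in MDA-MB-435, with PMEL at 13 and 4 counts, MLANA at 9 and 14, and TYR at 2 and 3. In MDA-MB-231 these had 34 and 29, 8 and 14, and 0 and 0. MITF did not mark the melanoma line, with 1585 and 690 counts in the breast cancer line and 1405 and 809 in the melanoma line. Of the breast cancer markers, AXL, CAV1 and CD44 were high in both lines. AXL had 27961 control counts against 12648, and CAV1 27827 against 16991. CD44 had 27537 and 20016 counts in the breast cancer line and 36689 and 27990 in the melanoma line.

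In MDA-MB-231, IL6, IL24 and CXCL1 fell after CPYPP, 3 of the 10 members, all of which were tested there, beside 3.09% of all tested genes. None of the 10 was called higher, beside 4.22%. In MDA-MB-435, LIF, IL24, CSF2 and CXCL1 fell, beside 6.52% of all tested genes. CXCL8 rose there, and 2 members of few counts, CXCL3 and IL1A, were called higher, beside 3.17%. IL6, IL1B and CXCL2 had too few counts to be tested in MDA-MB-435, and of the other 7, CXCL1, CXCL3 and IL1A reached 10 counts in 1 library alone, so the 7 of 7 called there is not a share of the members. IL24 was called lower in both lines, as were 0.989% of the 14262 genes tested in both. CXCL1 was also called lower in both, but only its control library reached 10 counts in the melanoma line, which fixed its direction there. With a biological coefficient of variation of 0.2 assumed on top of counting error, IL6 in the breast cancer line and IL24 and CXCL8 in the melanoma line were still called, and with 0.4 no member was. Whether fewer cells of a kind or less RNA per cell lay behind a lower count cannot be told apart in bulk RNA.

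**Figure D1:**
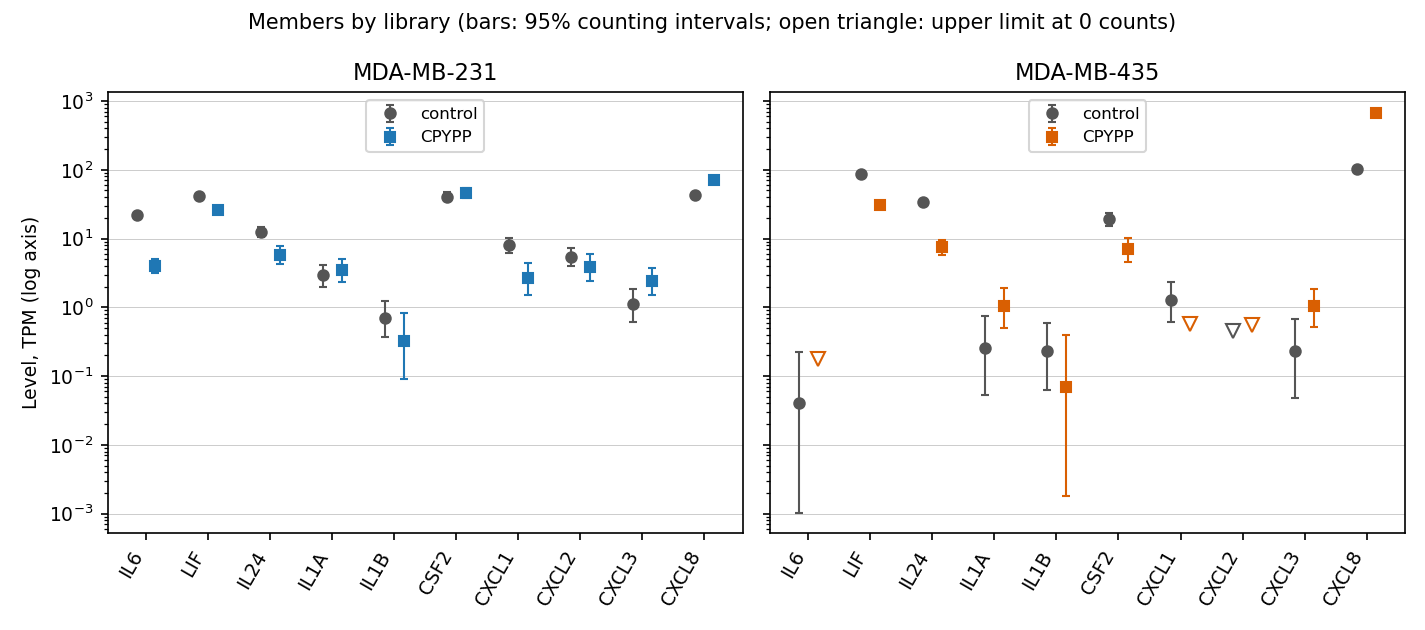
Level of each member in TPM (a gene's share of the library's counts after division by its exon length, log axis) without and with CPYPP, for MDA-MB-231 (left) and MDA-MB-435 (right). Points are single libraries, bars are 95% exact counting intervals, and open triangles give the upper limit of a member with 0 counts; CXCL8 after CPYPP in MDA-MB-435 stands at 677 TPM, above every other value.

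**Figure D2:**
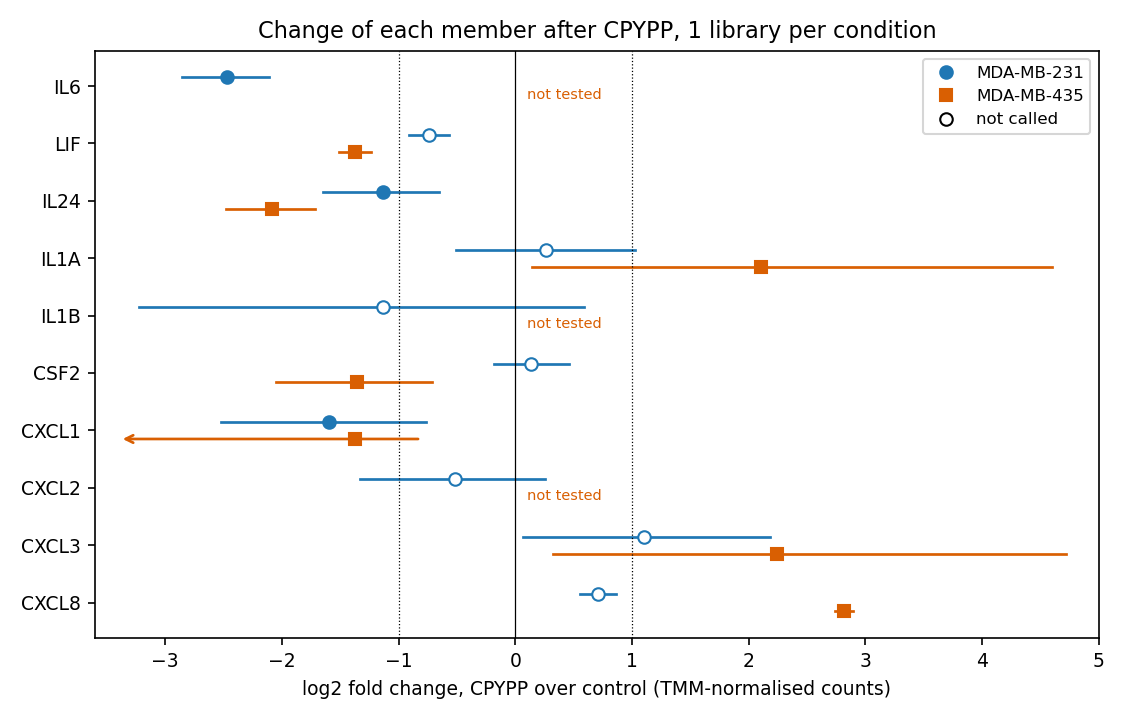
Log2 fold change of each member, CPYPP over control, in MDA-MB-231 (circles) and MDA-MB-435 (squares), with 95% counting intervals; filled symbols were called, open symbols were tested and not called, and dotted lines mark a 2-fold change. The arrow of CXCL1 in MDA-MB-435 runs off the axis because its CPYPP count was 0, and its symbol was drawn with that count set to 3.

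IL6, the acute-phase cytokine that also feeds autocrine STAT3 signalling in many tumours, was an MDA-MB-231 gene in these data. It had 530 counts in the control library of the breast cancer line and 70 after CPYPP, and 1 and 0 in the melanoma libraries. The breast cancer libraries thus stood far apart and both melanoma libraries were at or under the floor of 3 counts, where no fold is given. In MDA-MB-231 IL6 fell 5.55-fold (95% interval 4.32 to 7.22), rank 17 from the bottom among 16441 tested genes. On the length-corrected scale its level went from 21.8 to 3.99 TPM, from rank 6524 of 25098 genes with counts to rank 11978 of 24558.

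LIF, the gp130 cytokine named for its action on leukaemia cells, was expressed in both lines. It had 918 and 403 counts in the control and CPYPP libraries of the breast cancer line, and 1911 and 572 in those of the melanoma line. In MDA-MB-435 it fell 2.59-fold (2.36 to 2.85). In MDA-MB-231 the CPYPP library was 1.67-fold lower (1.48 to 1.88), under the 2-fold threshold, so that LIF was not called there. LIF stood at 42.1 and 25.6 TPM in the breast cancer line and at 85.7 and 31.2 TPM in the melanoma line, so the lines were nearer to each other after CPYPP than before.

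IL24, a cytokine first found as a gene of melanoma differentiation, fell in both lines. Its counts were 141 in the control and 47 in the CPYPP library of the breast cancer line, and 384 and 70 in the melanoma line. The fall was 2.20-fold (1.57 to 3.13) in the breast cancer line and 4.25-fold (3.29 to 5.57) in the melanoma line. The TPM values were 12.6 and 5.85 in the breast cancer line and 33.7 and 7.46 in the melanoma line, again closer between the lines after CPYPP.

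The 3 genes just described overlap genes on the opposite strand, and no strand setting of the counting is stated. IL24 overlaps FCMR, which had 147 and 71 counts in the breast cancer line and 1004 and 487 in the melanoma line, lower in both CPYPP libraries like IL24. IL6 overlaps STEAP1B, with 26 and 2 counts in the breast cancer line and 490 and 357 in the melanoma line, and IL6-AS1, with at most 5. LIF overlaps LIF-AS1 and LIF-AS2, each with at most 28 counts. IL6 had 1 and 0 counts in MDA-MB-435 beside 490 and 357 of STEAP1B, and in MDA-MB-231 both genes were lower after CPYPP. The part of the opposite-strand genes in the IL6, LIF and IL24 values was not tested. No other member overlaps a gene of the table.

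The IL-1 genes were scarce. IL1A, an alarm cytokine that dying cells can release, had 33 and 29 counts in the breast cancer line and 3 and 10 in the melanoma line. In MDA-MB-231 the ratio of the CPYPP to the control library was 1.20 (0.702 to 2.04), and IL1A was not called. The call as higher in MDA-MB-435 rested on 3 against 10 counts, with a ratio of 4.30 and an interval of 1.11 to 24.3, and it was lost with total counts and with upper-quartile scaling.

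IL1B, whose product is cut by caspase-1 before release, had 12 and 4 counts in the breast cancer line and 4 and 1 in the melanoma line. It was lower in the CPYPP library of each line, but in the breast cancer line the interval of its 2.20-fold lower value (0.666 to 9.35) included no change, and in the melanoma line it was not tested. No change of IL1B was detectable at this depth. The highest IL1B level was 0.707 TPM, in the MDA-MB-231 control library.

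CSF2 stood apart between the lines. It had 181 and 146 counts in MDA-MB-231, where the normalised CPYPP level was 1.10 times the control level (0.879 to 1.38) and was not called. In MDA-MB-435 it had 86 and 26 counts and fell 2.56-fold (1.64 to 4.14). Having a short transcript of 788 exonic bases, CSF2 ranked high per length, at 40.7 and 45.6 TPM in the breast cancer line and at 19.0 and 6.96 TPM in the melanoma line. Ordered by TPM, CSF2 was therefore close to LIF and CXCL8 in the MDA-MB-231 control library, where these stood at 42.1 and 43.2 TPM and all 3 intervals overlapped.

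CXCL8, which encodes interleukin-8 and is a gene of NF-kappaB, AP-1 and stress kinase signalling, had the largest fold change among the members with counts above the floor of 3 in both libraries of a line. Its counts were 630 and 753 in the breast cancer line and 1520 and 8303 in the melanoma line. In MDA-MB-435 it rose 7.05-fold (6.67 to 7.45), rank 27 from the top among 16527 tested genes. In MDA-MB-231 the CPYPP library was 1.63-fold higher (1.47 to 1.82), under the 2-fold threshold and not called. In TPM it went from 43.2 to 71.7 in the breast cancer line and from 102 to 677 in the melanoma line, where it climbed from rank 1752 of 25587 genes to rank 153 of 23827.

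CXCL1, the chemokine also known as GRO-alpha, was called lower in both lines, in the melanoma line on few counts. It had 62 and 15 counts in the breast cancer line, a 3.03-fold fall (1.70 to 5.73), and 10 and 0 in the melanoma line. With the 0 set to the floor of 3 counts, the melanoma CPYPP library was 2.58-fold lower, and the counting interval ran from 1.74-fold up. The TPM values were 8.07 and 2.71 in the breast cancer line, and 1.28 in the melanoma control library. CXCL8 and CXCL1 lie on the same strand of chromosome 4 with 126 kb between them. In the CPYPP library of MDA-MB-231 CXCL8 stood higher, though not called, and CXCL1 lower. In MDA-MB-435 CXCL1 was tested through its control library alone.

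CXCL2 and CXCL3, the close relatives of CXCL1, had few counts. CXCL2 had 43 and 22 counts in the breast cancer line, 1.43-fold lower (0.838 to 2.51) and not called, and 0 in both melanoma libraries, which allows up to 0.132 and 0.154 CPM (counts scaled to the library total), the value of 3 counts. CXCL3 had 14 and 22 counts in the breast cancer line, 2.14-fold higher (1.05 to 4.53) and not called, and 3 and 11 in the melanoma line, a ratio of 4.73 (1.25 to 26.4) that was called higher and was not with total counts. In MDA-MB-435 CXCL3 was tested through its CPYPP library alone and CXCL1 through its control library alone. The filter thus fixed their opposite signs there. In MDA-MB-231 CXCL1 was called lower and CXCL3 was not called.

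The transcripts of CXCL1, CXCL2 and CXCL3 are alike enough that reads could be split between them or left uncounted, so their counts were also summed. The sum was 119 and 59 in the breast cancer line, 1.48-fold lower (1.07 to 2.06), and 13 and 11 in the melanoma line, 1.09 times the control (0.443 to 2.64). The summed value of the breast cancer line lay under the 2-fold threshold. That of the melanoma line had the opposite sign to CXCL1 alone, with an interval that included no change. The direction of CXCL1 as a single gene therefore holds only as far as its reads were told from those of CXCL2 and CXCL3.

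**Figure D3:**
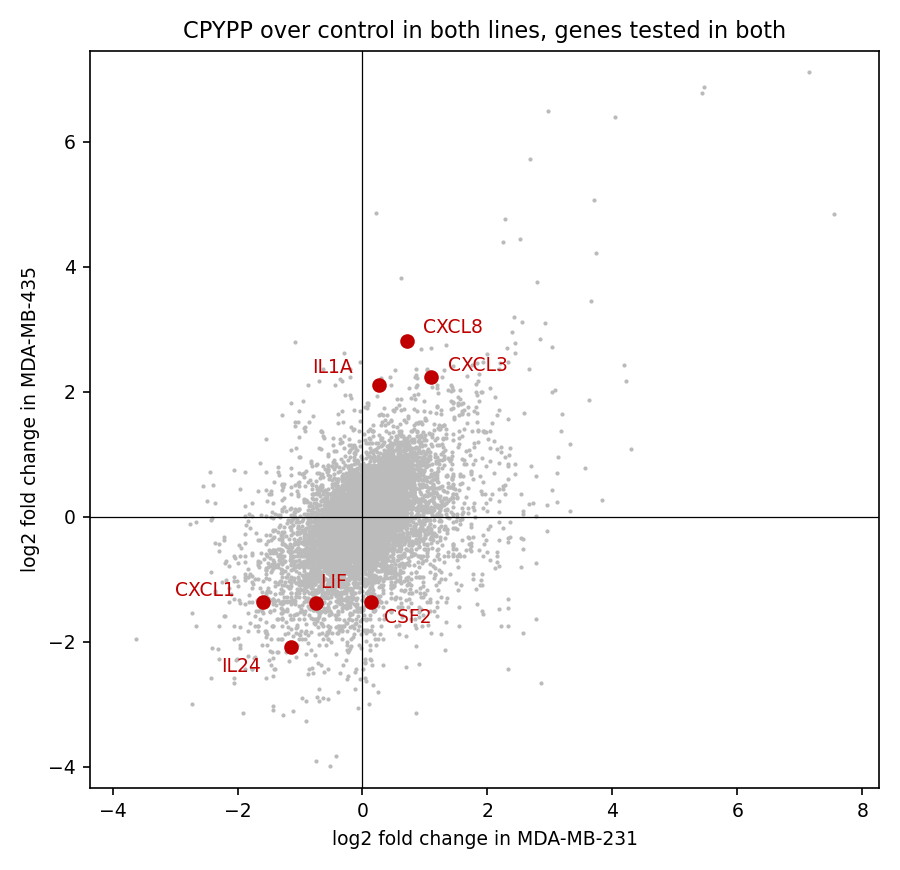
Log2 fold change, CPYPP over control, in MDA-MB-231 (horizontal) and MDA-MB-435 (vertical) for the 14262 genes tested in both lines (grey), with the 7 members among them in red. IL24, CXCL1 and LIF lie below 0 on both axes, CXCL8, CXCL3 and IL1A above 0 on both, and CSF2 at 0.14 and -1.36. In MDA-MB-435, CXCL1, CXCL3 and IL1A reached 10 counts in 1 library alone.

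The lines were compared member by member through the ratio of their fold changes, with a Wald interval for counting error and no replicate test. For CXCL8 the fold change in the melanoma line was 4.32 times that in the breast cancer line (3.83 to 4.87). For LIF, IL24 and CSF2 the melanoma value was the lower one. It was 0.644 times the breast cancer fold change for LIF (0.555 to 0.749), 0.517 times for IL24 (0.341 to 0.784) and 0.354 times for CSF2 (0.217 to 0.578). The intervals for IL1A, CXCL1 and CXCL3 included 1, each with a count of 3 or fewer among the 4.

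Before treatment the level of each member was compared between the control libraries of the lines. All other genes were not compared in this way, so no share over them can be set beside these values. The MDA-MB-231 control library had more IL6, with 530 counts against 1, a ratio of 568 of the normalised counts, taken without the floor, with a counting interval of 102 to 22480. CXCL2 was higher there at 43 counts against 0, 15.4-fold with the 0 set to 3 counts and a counting interval from 12.0-fold up. CXCL1 was 6.65-fold (3.38 to 14.5) and CSF2 2.26-fold (1.74 to 2.95) higher there. The ratio was 11.8 for IL1A (3.70 to 60.1) and 5.00 for CXCL3 (1.40 to 27.1). The MDA-MB-435 control library had 2.54-fold more IL24 (2.09 to 3.10), 2.25-fold more CXCL8 (2.05 to 2.47) and 1.94-fold more LIF (1.79 to 2.10). For IL1B, at 12 and 4 counts, the interval of 0.975 to 13.7 included 1.

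By TPM the order in the MDA-MB-231 control library was CXCL8, LIF and CSF2 with overlapping intervals, then IL6, IL24, CXCL1, CXCL2, IL1A, CXCL3 and IL1B. The intervals of CXCL1 and CXCL2, of CXCL2 and IL1A, and of CXCL3 and IL1B also overlapped. In the MDA-MB-435 control library it was CXCL8, LIF, IL24 and CSF2 with no overlap between neighbours, and then CXCL1 at 1.28 TPM, with the other 5 at or under 0.258 TPM. After CPYPP CXCL8 was first in each line. CSF2 came second in the breast cancer line at 45.6 TPM and LIF second in the melanoma line at 31.2 TPM.

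Summed over the 10 members, the level was 179 TPM in the control library of the breast cancer line and 166 TPM after CPYPP, and 242 and 724 TPM in the melanoma line. CXCL8 alone made up 24.2% and 43.3% of the sum in the breast cancer line, and 42.1% and 93.4% in the melanoma line. Without CXCL8 the other 9 members together went from 135 to 94.0 TPM in the breast cancer line and from 140 to 47.7 TPM in the melanoma line. In reads, those 9 came to 86.5 CPM (82.7 to 90.4) in the control library of the breast cancer line and 44.1 (41.0 to 47.3) after CPYPP, and 106 (102 to 110) and 35.4 (32.8 to 38.1) in the melanoma line. The sum was thus lower in both CPYPP libraries once the largest member was left out, and higher in MDA-MB-435 with it. Of the counts of the 9, LIF alone gave 1911 of 2402 in the melanoma control library and 572 of 690 after CPYPP. In the breast cancer line LIF gave 918 of 1934 and 403 of 758. The sum without CXCL8 was therefore mostly LIF in the melanoma line, where IL1A and CXCL3 had more counts after CPYPP.

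**Figure D4:**
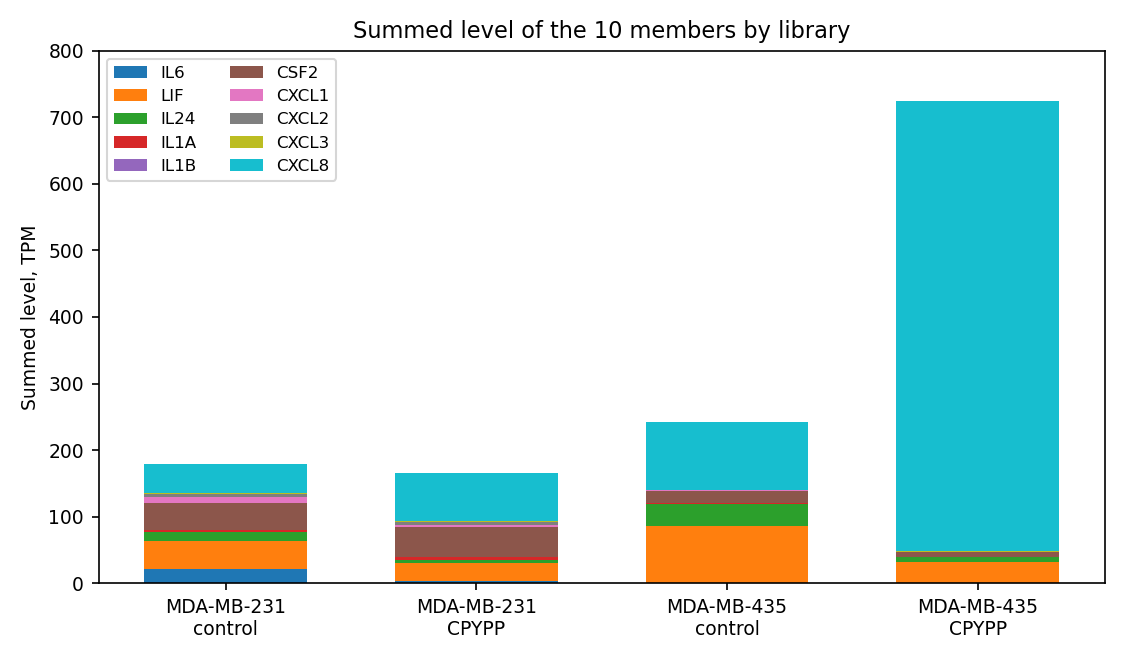
Summed level of the 10 members in TPM in each library, stacked by member. The MDA-MB-435 CPYPP bar reaches 724 TPM, of which CXCL8 makes up 93.4%, while LIF, IL24 and CSF2 are thinner than in the MDA-MB-435 control bar.

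A common effect over both lines was fitted with edgeR's quasi-likelihood test on all 4 libraries, with cell line as blocking factor and 1 residual degree of freedom. The spread in this fit comes from differences between the lines' responses, not between cultures, and it is shared across genes. A gene's SE and adjusted p therefore do not measure how far the lines differed for that gene. For CXCL8 the log2 fold changes were 0.71 (breast cancer line) and 2.82 (melanoma line), beside an SE of 0.36. The fit called 4.39% of 16801 genes higher and 2.85% lower, and 9 members passed its filter (all but IL1B). IL6 was lower by log2 -2.48 ± 0.36 (SE, adjusted p = 0.00285), a value that rests on the breast cancer line since the melanoma line had 1 and 0 counts. LIF was lower by log2 -1.11 ± 0.18 (adjusted p = 0.00474) and IL24 by -1.70 ± 0.30 (adjusted p = 0.00817). CXCL8 was higher by log2 1.77 ± 0.36 (adjusted p = 0.0162), and DESeq2 in place of edgeR gave an adjusted p of 0.215, with a range of 1.88e-31 to 1.00 over the alternatives. CXCL1 had log2 -2.04 ± 0.70 and an adjusted p of 0.115, which was 0.0431 with total counts and 0.0223 without the filter on low counts, with a range of 0.0223 to 1.00 over the alternatives (DESeq2 gave none). CXCL3, CSF2, IL1A and CXCL2 had adjusted p of 0.229 to 0.759. Without the block for the line no gene was called by edgeR, and 167 had an unadjusted p under 0.05.

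The receptors that the members bind were measured beside them. Of 15 receptor genes, 10 were tested in the breast cancer line, with 1 called higher and 1 lower, and 9 in the melanoma line, with 0 called. Beside this and each list below, 4.22% of all tested genes were called higher and 3.09% lower in the breast cancer line. In the melanoma line these shares were 3.17% and 6.52%. IL6R, the ligand-binding chain for IL6, had 66 and 236 counts in MDA-MB-231 and rose 4.88-fold (3.70 to 6.51), in the line where IL6 itself fell. IL20RA, a receptor chain for the IL-10 family, had 11 and 0 counts there and was tested through its control library alone. With the 0 set to 3 counts it was 2.69-fold lower, and its counting interval ran from 1.84-fold up. The neutrophil chemokine receptors CXCR1 and CXCR2 and the decoy ACKR1 were at 0 counts in all 4 libraries, a remark made after their values had been seen.

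Among the other gp130 cytokines, CLCF1, a ligand of the ciliary neurotrophic factor receptor, was called higher in both lines, the 1 call of 6 tested genes in the breast cancer line and of 4 in the melanoma line. It had 543 and 808 counts in the breast cancer line (2.03-fold, 1.82 to 2.27) and 451 and 824 in the melanoma line (2.36-fold, 2.10 to 2.65), where the counts of LIF were lower. The MDA-MB-231 value lay close to the 2-fold threshold and was no longer called with total counts or upper-quartile scaling. In the IL-1 family 3 of 10 genes were tested in each line and 0 called. In the IL-10 family 0 of 5 were tested, with at most 3 counts summed over the list in any library, although one of its genes, IL20, lies 28.2 kb from IL24.

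Most of the chemokines outside the set had too few counts to be tested. Of 23 genes, 7 were tested in the breast cancer line, with 2 called lower and 0 higher, and 4 in the melanoma line, with 1 lower and 0 higher. Over all tested genes, 3.09% were called lower in the breast cancer line and 6.52% in the melanoma line. CCL2, the monocyte chemoattractant, had 920 and 115 counts in MDA-MB-435 and fell 6.20-fold (5.10 to 7.60), opposite to CXCL8 in the same libraries. CXCL10, an interferon-induced chemokine, fell 3.05-fold in MDA-MB-231 (1.22 to 9.10) from 25 to 6 counts, and CCL5 fell 2.83-fold (1.20 to 7.69) from 27 to 7. Each of these 2 reached 10 counts in the control library alone, so it could be called only lower.

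Of 27 other cytokines, 12 were tested in the breast cancer line with 2 higher and 2 lower, and 10 in the melanoma line with 1 higher and 2 lower. TNFSF15, a TNF family ligand made by endothelial cells, fell in both lines, 3.35-fold (2.42 to 4.71) from 210 to 46 counts in the breast cancer line and 4.79-fold (3.77 to 6.15) from 488 to 79 in the melanoma line. IL12A, a subunit shared by IL-12 and IL-35, rose 4.82-fold (2.69 to 9.17) in the melanoma line from 15 to 56 counts. In MDA-MB-231, IL7, a lymphocyte growth factor, rose 2.88-fold (1.24 to 7.23) from 9 to 19 counts, and LTB, lymphotoxin beta, fell 2.78-fold (1.36 to 6.27) from 38 to 10. IL7 reached 10 counts there in the CPYPP library alone, so it could be called only higher.

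Downstream of the receptors, most genes were not called. In the JAK-STAT list 1 of 13 was called higher and 1 lower in the breast cancer line, and 1 lower in the melanoma line. SOCS2, a feedback inhibitor of cytokine receptors, fell in both lines, 2.86-fold (2.43 to 3.37) from 721 to 185 counts in the breast cancer line and 2.29-fold (1.88 to 2.80) from 398 to 135 in the melanoma line. CISH, a feedback gene of STAT5, rose 3.90-fold (1.58 to 10.9) in the breast cancer line from 7 to 20 counts. CISH reached 10 counts there in the CPYPP library alone, so it could be called only higher.

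In the list of IL-1 signalling and NF-kappaB, 1 of 22 tested genes was lower in the breast cancer line, and of 21 in the melanoma line, 2 were higher and 1 lower. BCL3, an atypical IkappaB protein that works with p50 and p52 in the nucleus, fell in both lines, 3.57-fold (2.51 to 5.20) from 185 to 38 counts in the breast cancer line and 4.70-fold (3.50 to 6.40) from 321 to 53 in the melanoma line. NFKBIA, the inhibitor that NF-kappaB itself induces, rose 2.45-fold (2.23 to 2.70) from 643 to 1223 counts in MDA-MB-435. NFKBIZ, a nuclear cofactor of IL6 and chemokine genes, rose 2.15-fold (1.86 to 2.48) from 314 to 523 there, close to the 2-fold threshold, and was no longer called with total counts or upper-quartile scaling. In MDA-MB-231 neither was called.

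The C/EBP and AP-1 list held the largest change among these lists. Of 10 genes, all tested in each line, 3 rose and 1 fell in the breast cancer line, and 3 rose and 0 fell in the melanoma line. Over all tested genes, 4.22% were called higher in the breast cancer line and 3.17% in the melanoma line. ATF3, a stress-induced member of the AP-1 and CREB family, rose 4.86-fold (4.03 to 5.90) from 142 to 506 counts in the breast cancer line and 27.2-fold (22.6 to 33.1) from 114 to 2406 in the melanoma line. FOS, an immediate early AP-1 subunit, rose 3.23-fold (2.08 to 5.13) from 30 to 71 in the breast cancer line and 3.14-fold (2.06 to 4.90) from 32 to 78 in the melanoma line. In MDA-MB-231 its relative FOSB rose 4.85-fold (2.84 to 8.70) from 18 to 64 counts, and CEBPD, a C/EBP factor of the acute phase, fell 2.43-fold (1.54 to 3.97) from 83 to 25.

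Genes that bind AU-rich elements or destroy cytokine mRNA were also tested, 10 in each line. ZFP36, which encodes the mRNA decay factor tristetraprolin, rose 2.25-fold (1.80 to 2.83) from 129 to 213 counts in MDA-MB-231. ZC3H12A, which encodes the RNase regnase-1 that cuts IL6 mRNA, rose 2.63-fold (1.99 to 3.49) from 79 to 152 there. These were the 2 calls in the breast cancer line, beside 0 in the melanoma line. Of the list of IL-1 processing and release, NLRP3, the inflammasome sensor, fell 5.25-fold (2.23 to 15.1) in the breast cancer line from 43 to 6 counts, 1 of 9 tested genes, and 0 of 6 were called in the melanoma line. NLRP3 was tested through its control library alone.

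**Figure D5:**
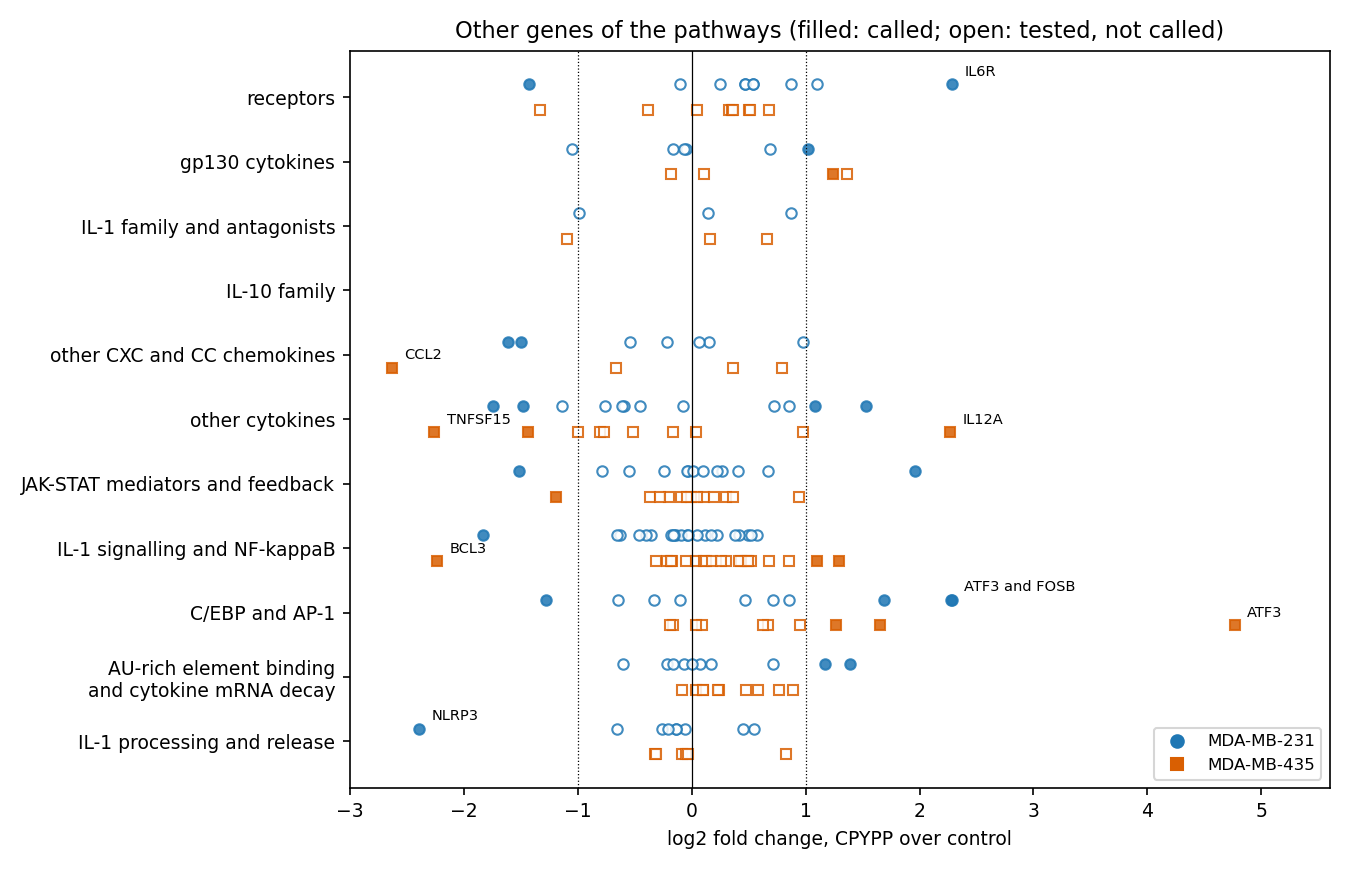
Log2 fold change, CPYPP over control, of the tested genes of each companion list in MDA-MB-231 (circles) and MDA-MB-435 (squares). Filled symbols were called, dotted lines mark a 2-fold change, and called genes beyond log2 2 in size are named; most symbols are open, and ATF3 in MDA-MB-435 lies farthest from 0 at 4.77.

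The medians of the lists lay near that of all tested genes for some lists and away from it for others. Over all tested genes the median log2 fold change was -0.01 in each line. It was 0.59 and 0.65 for the C/EBP and AP-1 list in the breast cancer line and the melanoma line, 0.50 and 0.36 for the receptors, and -0.52 and -0.64 for the other cytokines. The NF-kappaB list had -0.07 and 0.26, and the JAK-STAT list 0.01 and -0.0034. The gp130 cytokines had -0.06 and 0.67, the IL-1 family 0.14 and 0.16, and the other chemokines -0.21 and -0.15. The 0.67 rests on 4 tested genes, of which IL11, at 6 and 12 counts, was tested through its CPYPP library alone. Other lists also hold genes tested through 1 library alone, and the filter fixed the direction of those genes. The genes of mRNA decay had 0.03 and 0.23, and those of IL-1 processing -0.14 and -0.06. For the tested members the median was -0.63 in the breast cancer line, where IL1B was tested through its control library alone. The melanoma median is not given because 3 of the 7 were tested through their higher library.

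Immune cells are the usual source of several members, so a leukocyte list of PTPRC, CD14, CD68, ITGAM, LYZ and CD3E was read beside them. Its 6 genes summed to 72 and 29 counts in the control and CPYPP libraries of the breast cancer line and to 31 and 38 in the melanoma line. PTPRC, the pan-leukocyte marker CD45, had 36 and 9 counts in the breast cancer line, the 1 called gene of 3 tested, and 0 and 2 in the melanoma line. In the breast cancer line PTPRC was tested through its control library alone. CD3E, a defining T cell gene, was near 0, at 1 and 0 counts in the breast cancer line and 0 and 2 in the melanoma line. In MDA-MB-231 IL6 went from 530 to 70 counts, and the sum of the list was lower after CPYPP too. The part of leukocytes in the member values was not tested.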

How the data were processed

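The authors deposited raw read counts per gene for 4 libraries, with exon lengths, gene positions and symbols. The submitters' processing notes name cutadapt 1.9.1, HISAT2 2.2.1, HTSeq 0.6.1 and DESeq2, with GRCh37.p13 as the build. Yet 58241 of the 58254 genes also in GENCODE v29 overlap their position there, so the positions printed are GRCh38. The strand setting and annotation version are not given in the sources used here.

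Counts were analysed with edgeR 4.0.16 and DESeq2 1.42.0 in R 4.3.3, and sequences with Biopython 1.88 in Python 3.11.15. Within a line, TMM factors from the tested genes (0.950 to 1.05) scaled the totals, and a fold change set counts of 3 or fewer to 3. TPM was computed from the counts and exon lengths. The common effect used genes kept by filterByExpr. The procedures were tested on simulated data. Of each of 11 companion lists, at most the 4 called genes of largest fold change were named. The members, lists, tests and 32 alternatives were chosen with earlier results of these data known. One marker gene of the leukocyte list is not reported here. Replicate spread could not be estimated, and the study's other assays were not analysed here.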

Additional observations from a re-analysis of the deposited data

Results flagged for a closer look

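CSF2 went in opposite directions in the lines, with a log2 fold change after CPYPP of 0.14 in MDA-MB-231 and of -1.36 in MDA-MB-435. Each line gave 1 library per condition, so this difference was not tested over replicates. The MDA-MB-231 value had a counting interval that included no change, while the ratio of the fold changes had a counting interval of 0.217 to 0.578.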

How the results depend on the processing

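With 1 library per condition no library could be left out, and no spread between cultures entered a call. No paired analysis was possible because the libraries carry no shared replicate number, so the cell line served as the block of the common effect. Normalisation by DESeq2 size factors or the upper quartile kept the counts of calls over all genes and over the members within 1.5 times wherever they were run. Total counts and the upper quartile moved the median log2 fold change of all genes in MDA-MB-435 to -0.16 and -0.13.

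Members called higher in MDA-MB-435 went from 3 to 1 with total counts, the call of CXCL8 alone, and to 1 when 10 counts were asked of both libraries. Of members called lower, the breast cancer line had 3 and the melanoma line 4. An assumed biological coefficient of variation of 0.2, in edgeR's exact test, left 1 called lower in each line (IL6 and IL24) and 1 higher in MDA-MB-435 (CXCL8), and one of 0.4 left 0 in each. A fold over 4 left 1 lower in each line, and a fold over 2 without a test added 1 higher in MDA-MB-231 (CXCL3). CXCL1 in MDA-MB-435 had a log2 value of 0.13 when summed with CXCL2 and CXCL3, the opposite sign to CXCL1 alone, with an interval that included no change. The sum held CXCL1 at 10 and 0 counts, CXCL2 at 0 and 0, and CXCL3 at 3 and 11. Whether reads were assigned to the wrong gene was not tested.

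Genes called higher and lower in MDA-MB-231 numbered 694 and 508. They were 436 and 282 with 10 counts in both libraries, 113 and 43 with the coefficient of 0.2, 4 and 0 with 0.4, and 220 and 96 over 4-fold, and 893 were lower without a test. In MDA-MB-435 they numbered 524 and 1078, then 124 and 147 with 0.2, 13 and 1 with 0.4, 140 and 237 over 4-fold, and 662 lower with 10 counts in both. The common effect had 737 higher and 478 lower, with 1263 and 868 by DESeq2, 1111 lower with total counts, 850 lower without a filter, and 0 and 0 without the block in edgeR, where 167 had an unadjusted p under 0.05.

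Counts under about 10, as for IL1A, IL1B and CXCL3, give intervals that span several-fold at this depth.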
